A study of Mus musculus with 12 samples.

Results

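The 10 circadian clock genes Per1, Per2, Per3, Bmal1, Clock, Cry1, Nr1d1, Nr1d2, Dbp and Tef were followed in sorted crypt cells of the mouse small intestine. They were found by gene symbol among the 55414 genes of the count table, and all 10 had enough reads for the test. In the GRCm39 annotation, with the span of each gene over its introns and exons, Per1 lies at chr11:68986035-69002300 and Nr1d1 at chr11:98658752-98666188. Per2 lies at chr1:91343700-91387069, Per3 at chr4:151081373-151129140, Clock at chr5:76342860-76452846 and Cry1 at chr10:84967560-85021252. Dbp and Bmal1 share chromosome 7, at chr7:45354512-45359627 and chr7:112806152-112914735, and Nr1d2 (chr14:4230545-4266624) and Tef (chr15:81686622-81711064) lie on chromosomes of their own. Bulk RNA-seq was available for 12 libraries in 4 groups of 3. Crypts were sorted into Paneth cells (CD24+ cKIT+ with medium to high side scatter, negative for CD31, CD45 and TER119) and non-Paneth cells, the latter by a gate that the labels and methods leave unstated. Each fraction came from WT mice and from GRKO mice. GRKO stands for GRvillinKO, in which the glucocorticoid receptor gene Nr3c1 is deleted in cells that express villin, a protein of the intestinal epithelium, so that other cells of these mice keep the receptor. All mice were untreated C57BL/6J animals of 8 to 12 weeks, kept in a cycle of 14 h light and 10 h dark. The labels and methods do not state the time of day at which crypts were taken. The methods give a number of 3 for the WT Paneth cells. The labels do not tie a library to a mouse, and p-values therefore measure the spread between these libraries.

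The mammalian clock is a feedback loop of transcription. BMAL1 and CLOCK bind DNA as a pair and activate the Per and Cry genes, whose proteins return to the nucleus and repress the pair. In another loop, the nuclear receptors encoded by Nr1d1 and Nr1d2 (REV-ERB alpha and beta) repress Bmal1, and the transcription factors encoded by Dbp and Tef carry the rhythm to output genes through D-box elements. Transcripts of most of these genes rise and fall over the day, those of Nr1d1 and Dbp with a large amplitude in many tissues, and glucocorticoids are a known signal to peripheral clocks, among others through Per1. Clock transcripts usually vary less over the day.

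The libraries held 11126297 to 15910292 counts, and those of a group differed from each other by far more than sampling noise (chi-square per degree of freedom of 13.2 to 50.4). Nr3c1 was found at 33.0 to 41.1 CPM (counts scaled to the same library total) in WT Paneth cells and at 4.73 to 12.1 CPM in GRKO Paneth cells, and at 134.6 to 159.5 CPM in WT against 19.6 to 36.2 CPM in GRKO non-Paneth cells. These values follow the genotype in the library titles, which was used here. Another label field names all Paneth libraries WT and all non-Paneth libraries GRKO. The 5 Paneth cell markers summed to 163780 to 239077 CPM in the Paneth libraries and to 241 to 1029 CPM in the non-Paneth libraries, while the 3 markers of stroma and endothelium summed to at most 0.853 CPM in any library. Xist was found in both WT libraries numbered 2 (126.5 and 256.6 CPM) and at no more than 0.520 CPM in the other 10, the RNA that marks the inactive X chromosome of female cells. Leaving out both WT libraries numbered 2 ended the calls of Per3 between the WT fractions, of Nr1d1 between the GRKO fractions and of Nr1d1 between genotypes in non-Paneth cells. The comparison of GRKO fractions holds neither library, and they enter it only through the spread shared in the fit. Each of these calls was also lost without other single libraries, as given below. The part of sex was not tested. In bulk RNA, fewer cells of a type and less RNA per cell cannot be told apart. Between the fractions the choice of scaling matters. Unless named otherwise, values below are TMM-scaled CPM, that is, CPM of a library total multiplied by a factor (0.656 to 1.5) that sets most genes equal between libraries, and the few abundant granule genes of Paneth cells therefore weigh little in them.

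Because the loop works through short DNA motifs near its own genes, the sequence from 250 bases before to 50 bases from the start of the canonical transcript was read from the GRCm39 genome for each member, the build the files use. The E-box CACGTG, the site of the BMAL1 and CLOCK pair, was found in the windows of Per1, Cry1 and Tef, 3 of 10, and in 7.81% of the windows of 21770 protein-coding genes. Its variant CACGTT, searched on both strands as all motifs were, was found in Per2, Cry1 and Nr1d1, 3 of 10 against 4.99%. The D-box TTATGTAA, the kind of site that DBP and TEF bind, was found in Per2 once and in Per3 at 2 places, 2 of 10 members against 0.937%. No matches in a member overlap, and each match is a description of the window and not a measured site. No window of a member held the D-box TTACGTAA (0.138% of all), the ROR element AGTAGGTCA (0.207%), the cAMP response element TGACGTCA (2.44%) or the receptor palindrome core ACANNNTGT (5.95%). The windows of 4 members are given, with capitals marking the E-box, its variant and the D-box. Each holds the E-box or its variant, and only that of Per2 also holds a D-box. The windows of Per3, with its D-boxes, and of Tef, with its E-box, are not printed.
Per1 (chr11:68989018-68989317, plus strand): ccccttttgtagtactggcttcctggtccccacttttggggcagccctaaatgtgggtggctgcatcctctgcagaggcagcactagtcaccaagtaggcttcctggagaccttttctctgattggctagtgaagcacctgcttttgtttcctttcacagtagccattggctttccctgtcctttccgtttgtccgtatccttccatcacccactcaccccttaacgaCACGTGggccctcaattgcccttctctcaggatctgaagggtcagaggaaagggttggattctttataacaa
Per2 (chr1:91386997-91387296, minus strand): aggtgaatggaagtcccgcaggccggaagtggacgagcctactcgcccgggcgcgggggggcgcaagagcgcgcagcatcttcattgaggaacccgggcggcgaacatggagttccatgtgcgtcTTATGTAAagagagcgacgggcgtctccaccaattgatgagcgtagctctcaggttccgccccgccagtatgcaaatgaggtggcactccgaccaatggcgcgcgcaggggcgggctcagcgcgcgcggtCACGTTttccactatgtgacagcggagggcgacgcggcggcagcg
Cry1 (chr10:85020900-85021199, minus strand): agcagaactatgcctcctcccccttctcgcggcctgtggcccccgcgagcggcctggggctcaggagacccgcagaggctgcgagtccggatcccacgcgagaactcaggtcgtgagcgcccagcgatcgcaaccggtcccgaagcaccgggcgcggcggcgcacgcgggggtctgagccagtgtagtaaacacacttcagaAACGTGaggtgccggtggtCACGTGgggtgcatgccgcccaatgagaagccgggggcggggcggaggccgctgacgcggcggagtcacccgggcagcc
Nr1d1 (chr11:98666110-98666409, minus strand): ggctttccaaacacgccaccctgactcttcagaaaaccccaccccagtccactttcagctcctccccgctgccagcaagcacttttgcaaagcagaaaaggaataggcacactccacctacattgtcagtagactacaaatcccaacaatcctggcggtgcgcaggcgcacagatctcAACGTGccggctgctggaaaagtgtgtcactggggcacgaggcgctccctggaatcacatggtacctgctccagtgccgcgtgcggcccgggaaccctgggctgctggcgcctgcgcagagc
In Per1 the E-box starts 22 bases before the transcript start. In Per2 the D-box starts at -125 and the E-box variant at base 6 of the transcript. In Cry1 the variant (read as AACGTG) starts at -48 and the E-box at -29, and in Nr1d1 the variant (AACGTG) starts at -72. Clock, Bmal1, Nr1d2 and Dbp held none of the 7 motifs in these windows.

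Levels of different genes were compared as CPM per kb of exon. All 10 members were detected in every library, with 10 counts (Dbp in a WT Paneth library) to 1350 counts (Clock in a WT non-Paneth library). In WT Paneth cells the members from Nr1d1 at the top with 2.49 ± 1.40 CPM per kb (SD, n = 3) down to Tef with 1.33 ± 0.487 formed a range in which the libraries of each neighbouring pair overlapped. Per3 (0.523 ± 0.222) and Dbp (0.50 ± 0.355) lay below, and the libraries of Per3 did not reach those of Tef. In WT non-Paneth cells Bmal1 was first with 6.20 ± 0.475 CPM per kb, followed by Nr1d1, Cry1, Clock and Per2, each overlapping the next, and all 3 libraries of Per2 (3.73 ± 0.477) lay above those of Per1 (1.68 ± 0.526). In GRKO cells Cry1 was first in both fractions, with 3.59 ± 1.74 in Paneth and 7.36 ± 1.88 in non-Paneth cells, in each case overlapping the next gene. Nr1d1 was ranked 1, 2 and 2 among the members in WT Paneth, WT non-Paneth and GRKO Paneth cells and ranked 7 in GRKO non-Paneth cells with 1.47 ± 0.693 CPM per kb. Per3 and Dbp were the lowest pair in every group. The order depends on the length used. Divided by the longest transcript instead, Bmal1 was first in 3 groups and second to Cry1 in GRKO Paneth cells. Nr1d1 was then ranked 4 in WT Paneth, WT non-Paneth and GRKO Paneth cells and 8 in GRKO non-Paneth cells.

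**Figure D1:**
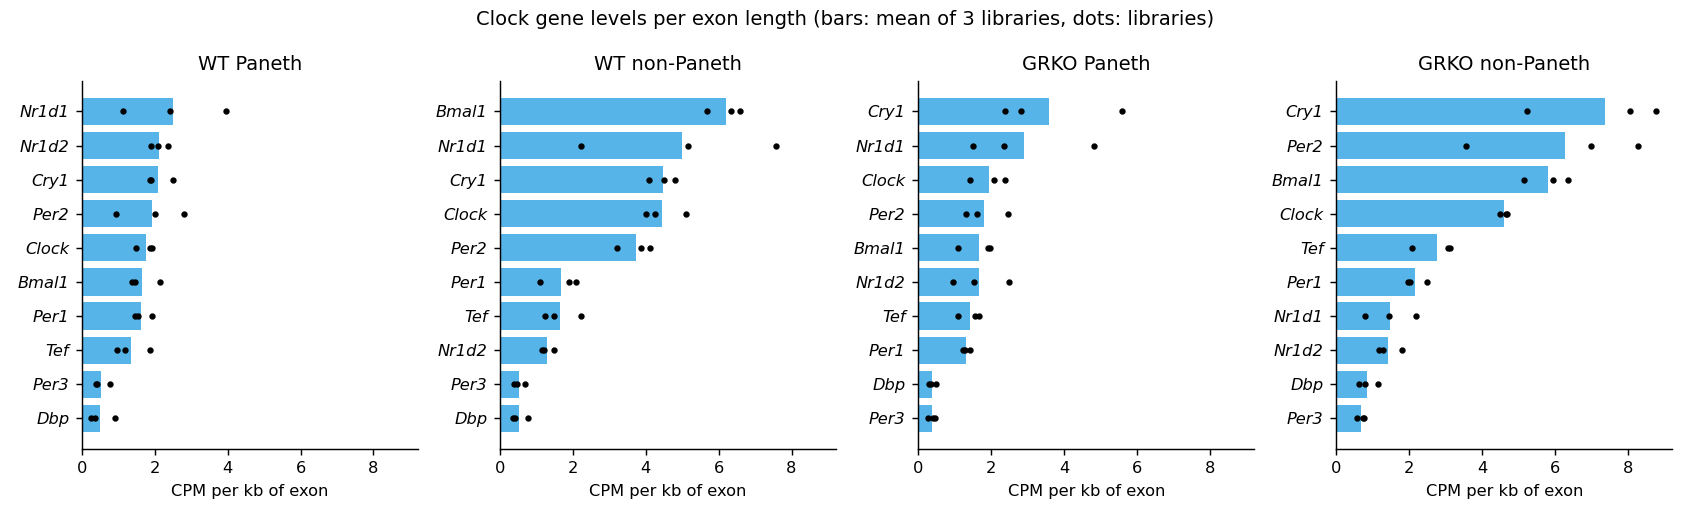
Levels of the 10 clock genes in CPM per kb of exon (x axis) in each of the 4 groups, with genes ordered by their mean. Bars are means of 3 libraries and dots are libraries. By exon length Nr1d1 is among the highest 2 genes in 3 groups and at rank 7 in GRKO non-Paneth cells, where its mean is 1.47. By the longest transcript, which is not drawn, it is at rank 4 in those 3 groups.

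The first comparison asked how clock gene levels differ between the fractions of WT crypts. Of the 10 members 5 passed an adjusted p of 0.05 in the edgeR fit, against 50.7% of all 13057 genes tested, so the share of members equals that of all genes. Bmal1 and Clock, the activators, were lower in Paneth cells (26.7% of all genes were called lower), and Per1, Per3 and Nr1d2 were higher (24% were called higher). Bmal1 was found at 30.1, 24.3 and 22 TMM-scaled CPM in the WT Paneth libraries and at 53.9, 63.9 and 60.3 in the non-Paneth libraries. The groups were far apart, and Bmal1 fell by 1.22 on the log2 scale, to 0.430 of its non-Paneth level (standard error (SE) of the log2 value 0.160, edgeR adjusted p = 1.45e-05). Clock was found at 31.2, 49.4 and 43.9 in Paneth and at 56.7, 61.2 and 72.2 in non-Paneth cells, again without overlap, and fell by 0.61 (SE = 0.164, edgeR adjusted p = 0.00569).

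Nr1d2, which encodes a repressor of Bmal1, showed the largest rise. It was found at 20.8, 32.7 and 24.7 TMM-scaled CPM in WT Paneth and at 10.9, 8.67 and 8.98 in WT non-Paneth cells. Every Paneth library lay above every non-Paneth library, with a log2 fold change of 1.45 (SE = 0.300, edgeR adjusted p = 0.00137), that is 2.74-fold. Its relative Nr1d1 did not pass. Nr1d1 was found at 15.5, 11.9 and 4.85 in Paneth and at 20.2, 14 and 5.88 in non-Paneth cells, and the log2 fold change was -0.30 with a wide interval (95% confidence interval -1.67 to 1.08). In each fraction replicate 3 was the lowest by far, and the fractions overlapped.

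Among the repressors that act on the activator pair, Per1 was found at 13.4, 17.8 and 19.4 in Paneth and at 6.81, 13.3 and 11.9 TMM-scaled CPM in non-Paneth cells. The highest non-Paneth library came close to the lowest Paneth library but stayed below it, and the log2 fold change was 0.65 (SE = 0.220, edgeR adjusted p = 0.0219). Per3 was found at 9.88, 5.94 and 5.80 in Paneth and at 5.98, 3.37 and 3.96 in non-Paneth cells, so the groups overlapped by a narrow margin, with a log2 fold change of 0.71 (SE = 0.275, edgeR adjusted p = 0.0415). Per2 had 22.2, 9.41 and 17.4 in Paneth and 22.2, 17.6 and 20.9 in non-Paneth cells and a log2 fold change of -0.30 (95% confidence interval -1.07 to 0.48). Cry1 had 11.4, 14.1 and 16.5 against 18.4, 17.0 and 19.7, without overlap, and a log2 fold change of -0.40 that missed the threshold (adjusted p = 0.242 by edgeR). The replicate numbers paired the WT libraries, and with the number as a block Cry1 passed (log2 fold change -0.40, adjusted p = 0.0453). The output factors did not pass. Dbp had 3.80, 1.24 and 1.66 in Paneth and 2.16, 1.05 and 1.18 in non-Paneth cells, from 10 to 40 counts per library. Tef had 18.8, 14.7 and 10.3 against 15.0, 10.1 and 8.45. Within the 3 pairs Dbp and Tef were higher in Paneth cells each time and Nr1d1 lower each time, and with the block none of these 3 passed. For Dbp and Tef this direction depends on the scaling. In CPM Tef was lower in Paneth cells in each pair (15.5 against 18.2, 9.65 against 12.1 and 7.82 against 10.3). Dbp was lower in replicates 2 and 3 (0.811 against 1.25 and 1.26 against 1.43) and higher in replicate 1.

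Bmal1, Clock and Nr1d2 passed under all 15 alternatives tried. Per1 was lost with only the WT libraries in the fit (edgeR adjusted p = 0.0621) and without WT Paneth replicate 2 or 3 (adjusted p = 0.0604 and 0.0912 by edgeR), and Per3 with only the WT libraries in the fit (edgeR adjusted p = 0.0873), without WT Paneth replicate 1, where its log2 fold change was 0.40, and without WT non-Paneth replicate 2 or 3 (0.65 and 0.73). With library totals in place of TMM factors the median of all genes moved from 0.012 to -0.68, and 8992 of all 13057 genes passed. The 5 calls became 1 higher (Nr1d2, 0.73) and 4 lower (Bmal1, Clock, Per2 and Cry1), while Per1 went to -0.050, which is above that median. Libraries did not overlap for 5 of the 10 members, against 57.5% of all genes, and the median log2 fold change of the members was 0.05 beside 0.012 for all genes tested. The fractions also differ in cell types by design, with 6 enterocyte markers at a sum of 335 to 936 CPM in WT Paneth and 19894 to 23396 CPM in WT non-Paneth libraries and the 3 tuft markers at 121 to 310 against 3.72 to 9.95 CPM. In Paneth cells 3 of 3 tuft, 4 of 4 stem, 1 of 3 proliferation and 1 of 3 tested immune markers were called higher, and 6 of 6 enterocyte, 3 of 3 enteroendocrine, 3 of 5 goblet and 2 of 2 general epithelial markers lower. Their part in the clock gene values was not tested.

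**Figure D2:**
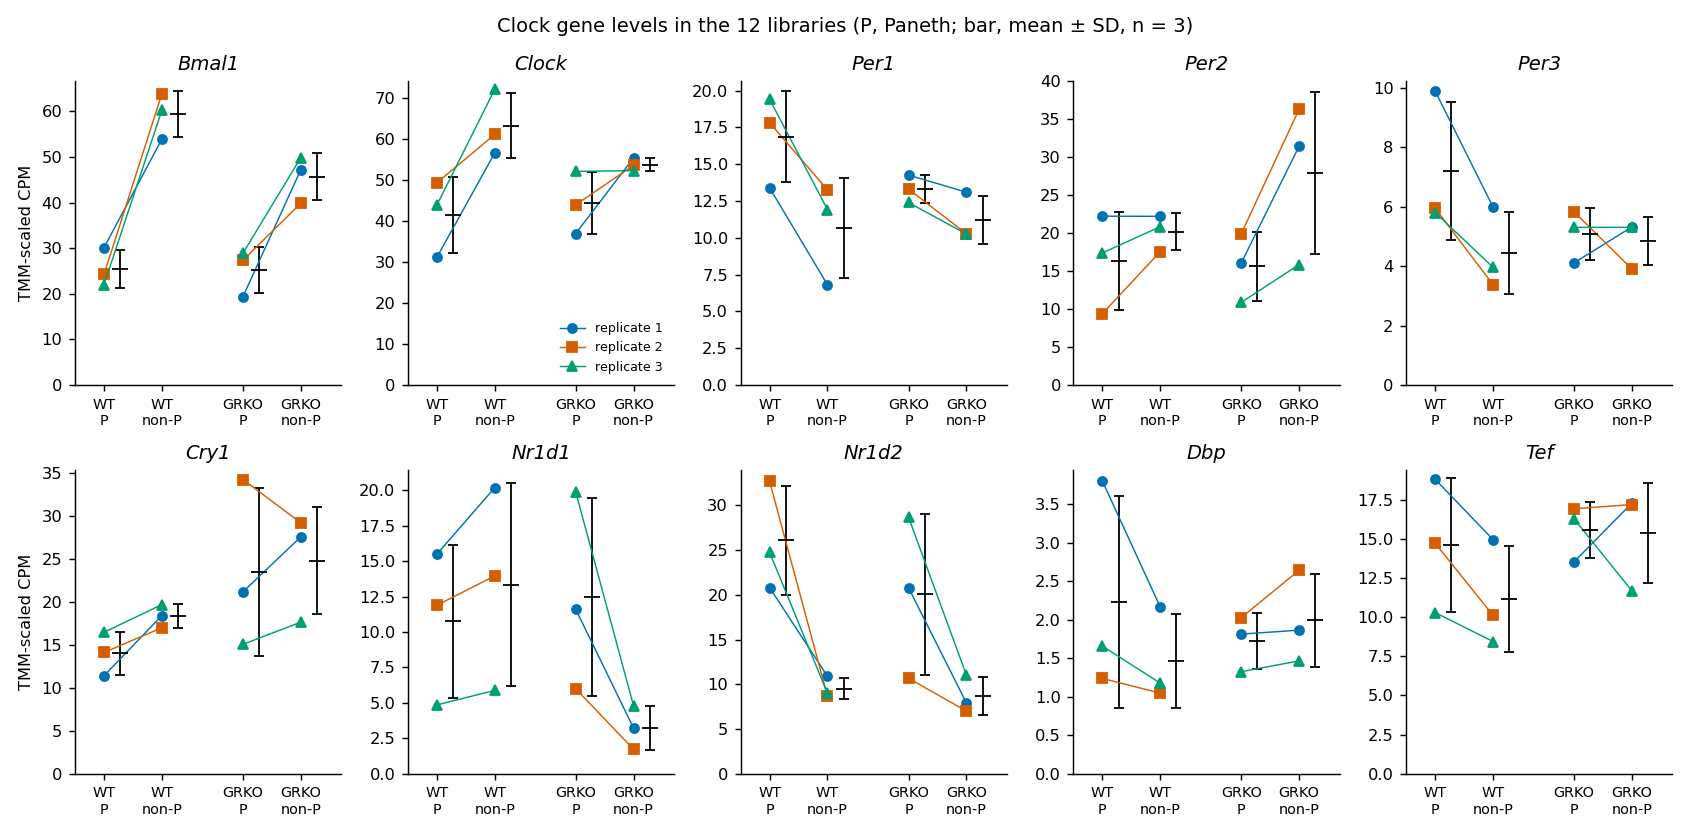
TMM-scaled CPM (y axis, from 0) of each clock gene in the 12 libraries. Points are libraries, lines join libraries of the same genotype and replicate number, and the bar beside each group is its mean ± SD (n = 3, P for Paneth). Bmal1 is lower in every Paneth library than in every non-Paneth library of the same genotype. Nr1d1 is below 5 in the 3 GRKO non-Paneth libraries and in WT Paneth replicate 3 (4.85).

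The same question was asked in GRKO mice, with libraries that the WT comparison did not use. In GRKO mice 3 of 10 members passed, against 39.2% of all genes. Bmal1 was again lower in Paneth cells (21.2% of genes were called lower), and Nr1d1 and Nr1d2 were higher (17.9% were called higher). Bmal1 was found at 19.3, 27.3 and 28.9 TMM-scaled CPM in GRKO Paneth and at 47.2, 39.9 and 49.8 in GRKO non-Paneth cells. The groups did not overlap and the gene fell by 0.85 on the log2 scale (SE = 0.159, edgeR adjusted p = 0.000608). Nr1d2 was found at 20.8, 10.7 and 28.7 in Paneth and at 7.93, 7.01 and 11 in non-Paneth cells. One Paneth library, replicate 2, lay just under the highest non-Paneth library, and the log2 fold change was 1.21 (SE = 0.299, edgeR adjusted p = 0.00648). Nr1d1 was found at 11.6, 6.00 and 19.9 in Paneth and at 3.22, 1.72 and 4.79 in non-Paneth cells. All Paneth libraries were above all non-Paneth libraries, with a log2 fold change of 1.94 and a wide SE of 0.634 (edgeR adjusted p = 0.0378).

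The other 7 members did not pass in GRKO mice. Clock had 37.0 to 52.2 in Paneth and 52.4 to 55.5 TMM-scaled CPM in non-Paneth cells, apart by a narrow margin, and a log2 fold change of -0.28 (adjusted p = 0.198 by edgeR). Per2 had 16.1, 19.9 and 10.9 in Paneth and 31.5, 36.3 and 15.9 in non-Paneth cells, which overlap through replicate 3, and a log2 fold change of -0.83 (adjusted p = 0.0813 by edgeR). Per2 passed in 4 of 15 alternatives (library totals, no filter, replicate block and without GRKO non-Paneth replicate 3), and the value was -0.49 without GRKO non-Paneth replicate 2. Per1, Per3, Cry1, Dbp and Tef had log2 fold changes between -0.21 and 0.25. Libraries did not overlap for 3 members (Bmal1, Clock and Nr1d1), against 52.6% of all genes, and the median over members was -0.026 beside -0.082 for all genes. In the same comparison 3 of 3 tuft, 2 of 4 stem, 1 of 5 goblet and 1 of 3 tested immune markers were called higher in Paneth cells, and 3 of 3 proliferation, 5 of 6 enterocyte, 3 of 3 enteroendocrine, 2 of 5 goblet and 1 of 2 general epithelial markers lower, and their part was not tested. The log2 fold change of Nr1d1 lay between 1.42 and 2.44 with single libraries left out, but its call was lost without GRKO Paneth replicate 1 or 3 (log2 fold change 1.99 and 1.42) and without GRKO non-Paneth replicate 1 or 2 (2.04 and 1.74), with adjusted p between 0.0675 and 0.141 by edgeR. With library totals only, the median of all genes moved from -0.082 to -1.05, and 10785 of all 13057 genes passed. Of the members 8 passed and all 8 were lower, while Nr1d1 (0.97) and Nr1d2 (0.23) stayed above 0 and did not pass.

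Between GRKO and WT Paneth cells no member passed (0 of 10, 3.22% of all genes, edgeR), and DESeq2 called 0, against 1407 of 24077 genes. An unadjusted p under 0.05 was reached by 3492 of all 13057 genes and by 1 member. That member was Cry1, a repressor of the activator pair, with 21.2, 34.2 and 15.1 TMM-scaled CPM in GRKO and 11.4, 14.1 and 16.5 in WT Paneth cells. Replicate 3 of GRKO lay within the WT range and the other libraries above it, and the log2 fold change was 0.76 (SE = 0.273, edgeR adjusted p = 0.107). Cry1 passed without the filter on low counts (0.77, edgeR adjusted p = 0.000973), and the value was 0.37 without GRKO Paneth replicate 2. Bmal1 was found at 19.3 to 28.9 in GRKO and at 22 to 30.1 in WT Paneth cells, with a 95% confidence interval of the log2 fold change of -0.37 to 0.34. For Per1, a gene that glucocorticoids are known to induce, the GRKO libraries had 14.3, 13.3 and 12.4 and the WT libraries 13.4, 17.8 and 19.4, and the log2 fold change was -0.34 (95% confidence interval -0.81 to 0.14). Nr1d1 had the widest interval (-1.20 to 1.61). The log2 fold changes of the other members were -0.51 for Per3, -0.40 for Dbp, -0.38 for Nr1d2, -0.073 for Per2, 0.09 for Tef and 0.10 for Clock, with overlapping libraries for each. The median over the 10 members was -0.044 beside 0.032 for all genes. Of the 10 receptor target genes listed for this study 9 were tested, and 3 passed in the same comparison, 2 higher (Mt1 by 1.19 and Cdkn1a by 0.87) and 1 lower (Sgk1, -1.78, named after its value was seen). With only the Paneth libraries in the edgeR fit, 0 genes of any kind passed, with 2341 at an unadjusted p under 0.05. None of the tested cell type markers passed between genotypes in Paneth cells. Tuft markers summed to 296 to 818 CPM in GRKO and 121 to 310 CPM in WT Paneth libraries. Stem markers summed to 3057 to 4359 and 5012 to 6502 CPM, mostly Olfm4 (log2 fold change -0.71, edgeR adjusted p = 0.0519). Goblet markers summed to 2120 to 3212 and 2129 to 3508 CPM, though Clca1 among them was higher by 2.71 (edgeR adjusted p = 0.0576). The part of these markers was not tested.

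The WT and GRKO non-Paneth libraries are also the ones that entered the fraction comparisons. In non-Paneth cells 1 of 10 members passed between GRKO and WT, against 37.3% of all genes, and that member, Nr1d1, was lower in GRKO (19.8% of all genes were called lower). Its values were 3.22, 1.72 and 4.79 TMM-scaled CPM in GRKO and 20.2, 14 and 5.88 in WT non-Paneth cells. The highest GRKO library lay below the lowest WT library, but the margin between them was small and came from replicate 3 of each genotype. Nr1d1 fell by 2.03 on the log2 scale (SE = 0.621, 95% confidence interval -3.43 to -0.64, edgeR adjusted p = 0.0308), to 0.244 of its WT level. The call was lost without GRKO non-Paneth replicate 1 or 2 and without WT non-Paneth replicate 1 or 2. The log2 fold changes were then -2.08, -1.79, -1.67 and -2.05 in that order, with adjusted p between 0.0696 and 0.10 by edgeR. With the replicate number as a block the call was lost as well (-2.03, edgeR adjusted p = 0.0590). That block joins equal numbers of the genotypes, whose deviations over all genes had correlations of only -0.083, 0.148 and -0.076. Exons of Thra, the gene of thyroid hormone receptor alpha on the opposite strand, cover 52.3% of the exon bases of Nr1d1, a larger share than Sphk2 covers of Dbp (15.5%) or Tmem165 of Clock (11.9%). The labels and methods do not state which strand was counted, so it is not known how reads of the shared bases were assigned. Thra had a log2 fold change of -0.31 in the same comparison (adjusted p = 0.179 by edgeR), with 64.5, 53.9 and 79.9 in GRKO and 89.8, 79.3 and 76.1 in WT cells.

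Nr1d2, the relative of Nr1d1, was found at 7.01 to 11 in GRKO and 8.67 to 10.9 in WT non-Paneth cells (log2 fold change -0.13, 95% confidence interval -0.79 to 0.52). Bmal1, which both repress, had 47.2, 39.9 and 49.8 against 53.9, 63.9 and 60.3 TMM-scaled CPM. The groups did not overlap, and the log2 fold change of -0.38 just missed the threshold (adjusted p = 0.0649 by edgeR). It passed in 6 of 15 alternatives, DESeq2 among them (-0.44, adjusted p = 0.0328), and was -0.092 with library totals only (edgeR adjusted p = 0.731). Per1 had 10.3 to 13.1 in GRKO and 6.81 to 13.3 in WT cells, and a log2 fold change of 0.068 (95% confidence interval -0.39 to 0.53). Per2, Cry1, Dbp and Tef had log2 fold changes between 0.43 and 0.47, none past the threshold, and those of Clock and Per3 were -0.24 and 0.13. Libraries did not overlap for 3 members (Bmal1, Clock and Nr1d1), against 55.3% of all genes, and the median over members was 0.098 beside 0.022 for all genes. With library totals only, the median of all genes moved to 0.31, and 5823 of all 13057 genes passed. Of the members 3 passed, Cry1 (0.72) and Tef (0.75) higher and Nr1d1 (-1.75) lower. The makeup of the non-Paneth fraction differed between genotypes. The 6 enterocyte markers summed to 5296 to 6537 CPM in GRKO and 19894 to 23396 in WT libraries, with 2 of 6 called lower. The 3 proliferation markers summed to 1428 to 1528 against 685 to 787 CPM and the 3 tuft markers to 84.2 to 346 against 3.72 to 9.95 CPM, all 6 called higher. Of the other lists, 3 of 4 stem markers and 1 of 5 Paneth markers were called higher, 2 of 5 goblet markers lower, and 1 of 2 general epithelial markers lower, while 0 of 3 enteroendocrine and 0 of 3 tested immune markers passed. The immune markers summed to 475 to 1791 CPM in GRKO and 2500 to 2661 CPM in WT libraries. Nearly all of this sum was Cd74, at 475 to 1786 and 2499 to 2659 CPM. Ptprc went the other way, with 0.446 to 9.11 CPM in GRKO and 0.195 to 0.487 CPM in WT libraries. Cd3e and Lyz2 had at most 0.696 CPM in these libraries. The part of all these markers in the values of Nr1d1 and Bmal1 was not tested.

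Whether the genotype difference itself differs between the fractions was tested as the interaction. The fit uses all 12 libraries and so shares them with the comparisons above. No member passed (0 of 10, 18.7% of all genes, edgeR). An unadjusted p under 0.05 was reached by 4345 of all 13057 genes and by 1 member, Nr1d1. Its log2 fold change between genotypes was 0.21 in Paneth and -2.03 in non-Paneth cells, a difference of 2.24 (SE = 0.879, edgeR adjusted p = 0.109). With DESeq2 it passed (2.32, adjusted p = 0.0487), and without the filter on low counts as well. For Bmal1 the difference was 0.37 (95% confidence interval -0.11 to 0.85) and for Per1 -0.41 (-1.07 to 0.26), and those of the other 7 members lay between -0.85 for Dbp and 0.34 for Clock. The median over members was -0.31 beside -0.0079 for all genes.

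**Figure D3:**
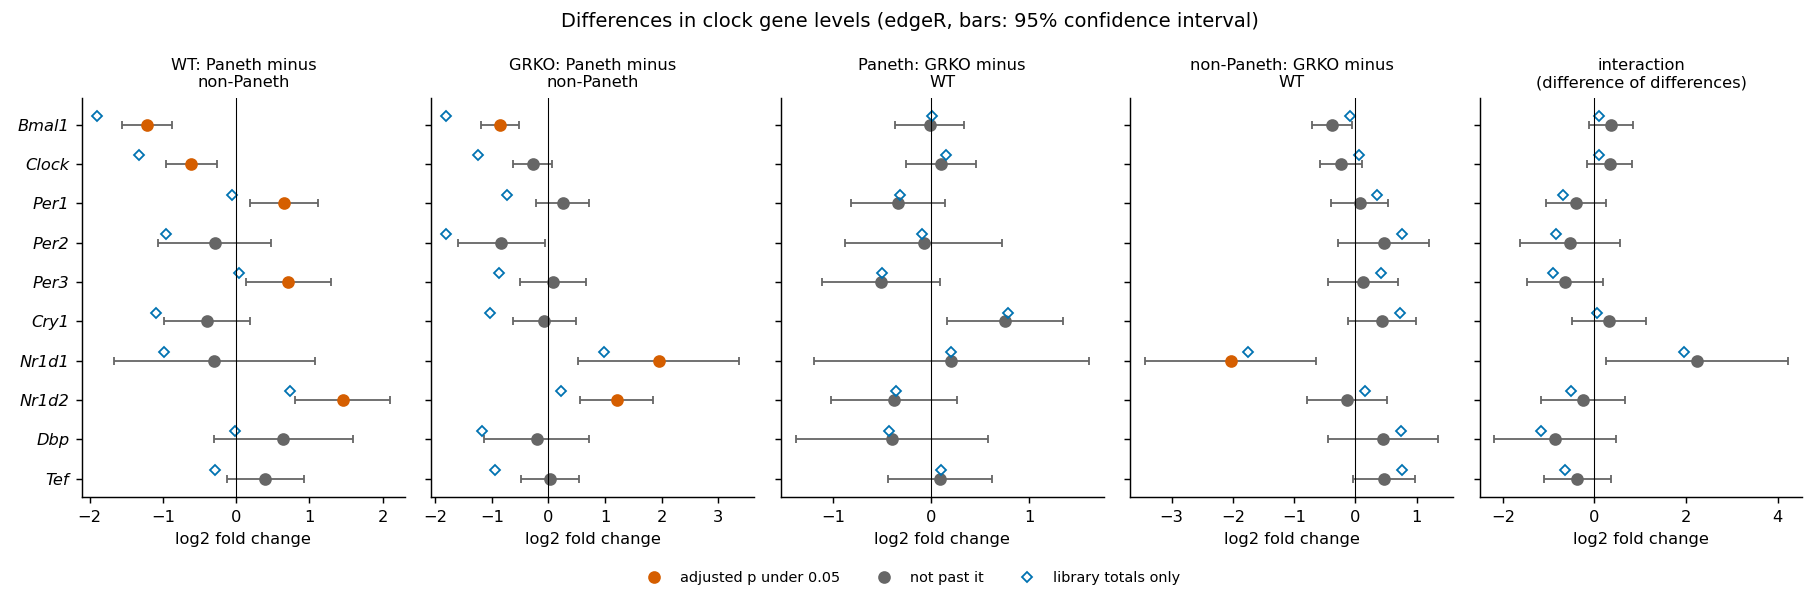
Log2 fold changes of the 10 clock genes (x axis) in the 5 comparisons, with 95% confidence intervals. Filled circles are the edgeR fit with TMM factors, orange where the adjusted p is under 0.05, and open diamonds are the fit with library totals only. In the fraction comparisons the diamonds lie to the left of the circles, and Nr1d1 has the widest interval in every panel.

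Members differed in how much they varied among libraries of a group. The SD within groups, pooled over the 4 groups on the log2 scale, was 0.85 for Nr1d1, higher than in 93.3% of the genes tested, and 0.56 for Dbp, 0.51 for Per2 and 0.44 for Nr1d2. Bmal1 (0.22) and Clock (0.23) were close to the median of all genes, 0.23. Dbp had few counts, 10 to 63 per library, but Nr1d1 had 41 to 317. Within a group the highest library of Nr1d1 was 3.47, 3.44, 3.21 and 2.74 times the lowest in CPM in Paneth and non-Paneth cells of WT mice and then of GRKO mice. Libraries of 1 group thus differed in this gene by ratios close to those between fractions in GRKO mice (3.85-fold) or genotypes in non-Paneth cells (4.1-fold). Between the GRKO fractions Nr1d1 had 11.6, 6.00 and 19.9 TMM-scaled CPM in Paneth and 3.22, 1.72 and 4.79 in non-Paneth cells. Because these do not overlap, any pairing of the libraries gives the same direction, and the replicate numbers add nothing to it.

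This spread was shared by the fractions. In WT mice Nr1d1 deviated from its group mean by 0.68, 0.30 and -0.98 (log2, replicates 1, 2 and 3) in Paneth cells and by 0.77, 0.24 and -1.0 in non-Paneth cells. In GRKO mice the deviations were 0.06, -0.89 and 0.83 in Paneth and 0.11, -0.78 and 0.68 in non-Paneth cells. The library of a given genotype and number was thus high or low in both fractions. The replicate numbers stood in the same order in both fractions for Nr1d1, Per2, Dbp and Tef in WT mice, 4 of 10 members against 25% of all genes, and for Per1, Per2, Cry1, Nr1d1, Nr1d2 and Dbp in GRKO mice, 6 of 10 against 16.3%. In both genotypes it was the same for Per2, Nr1d1 and Dbp, 3 of 10 against 4.04%. In GRKO mice Nr1d1 and Nr1d2 were highest in replicate 3, then 1, then 2, in both fractions, while Per2, Cry1 and Dbp ran 2, 1, 3, the reverse. Over all genes, deviations of equal numbers had correlations of 0.320, 0.211 and 0.196 in WT and of 0.045, 0.249 and 0.439 in GRKO mice, and only the WT numbers met the rule for pairs. Ordered by CPM of all counts, a scale chosen after seeing the data, the counts were 7, 5 and 4 of 10 members against 26.4%, 19.1% and 4.89% of all genes.

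**Figure D4:**
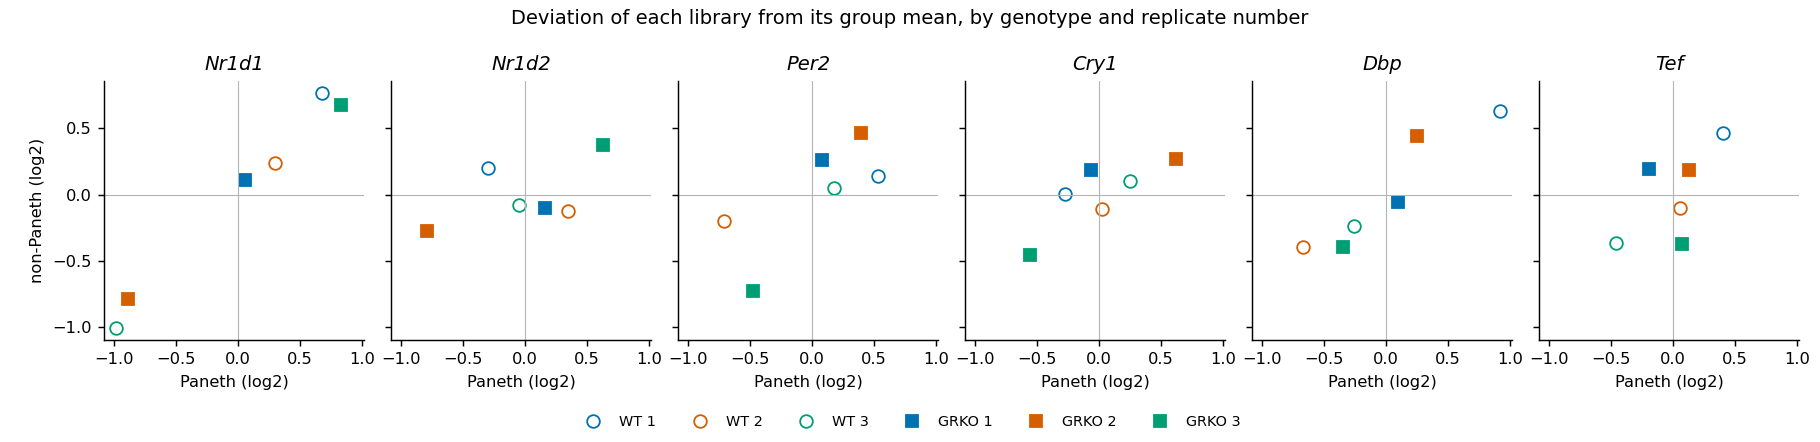
Deviation of each library from its group mean (log2 TMM-scaled CPM) in Paneth (x axis) and non-Paneth cells (y axis) for 6 clock genes. Each point is a genotype and replicate number, open circles for WT and filled squares for GRKO. For Nr1d1 the 6 points lie near the diagonal, from -1.0 to 0.77 on the y axis.

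The other genes of the clock pathway were listed by role, 23 in all, of which 21 were tested, while Bhlhe41 and Rorb had 0 counts in every library. Between the WT fractions 15 passed, against 50.7% of all genes, 6 higher (24% of all genes) and 9 lower (26.7%) in Paneth cells. Among the activators, Npas2, a relative of Clock that also pairs with BMAL1, was lower by a log2 fold change of -1.26, and Bmal2 was higher by 1.15. Among repressors and modifiers Cry2 was lower (-1.25) and Timeless (0.33) and Ciart (2.10, from 2 to 11 counts per library) were higher. In the ROR and D-box arms Rora, an activator of Bmal1, was higher by 3.88, with 28 to 44 counts in Paneth and 3 to 6 in non-Paneth libraries. Hlf (-2.73), a relative of Dbp and Tef with 0 to 4 counts in Paneth and 18 to 29 in non-Paneth libraries, and Nfil3 (-1.44), a repressor at D-boxes, were lower. Of the kinases and ubiquitin ligases that set the stability of PER and CRY, Csnk1e was higher (0.80) and Csnk2a1 (-0.75), Gsk3b (-0.51) and Fbxw11 (-0.39) were lower. Of the output genes Wee1 was higher (0.48) and Usp2 (-1.28) and Nampt (-0.54) were lower. With library totals only, 16 passed, against 8992 of all 13057 genes, 1 higher and 15 lower. Timeless (-0.36) and Wee1 (-0.21) turned. The median over the 21 genes was -0.34 beside 0.012 for all genes.

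In GRKO mice 9 of the 21 passed between the fractions, near the 39.2% of all genes called there. Of these, 6 were higher (Rora 4.41, Fbxl21 1.71, Noct 1.36, Bmal2 1.15, Npas2 0.50 and Bhlhe40 0.37) and 3 were lower (Usp2 -1.10, Timeless -0.48 and Wee1 -0.42). Rora had 23 to 48 counts in Paneth and 1 to 8 in non-Paneth libraries. With library totals only, 18 passed, against 10785 of all 13057 genes, 1 higher and 17 lower. Npas2 (-0.46) and Bhlhe40 (-0.59) turned. Between the genotypes none of the 21 passed in Paneth cells by edgeR (3.22% of all genes). An unadjusted p under 0.05 was reached by 7 of the 21, against 3492 of all 13057 genes. DESeq2 called 1, against 1407 of 24077 genes. In non-Paneth cells 11 passed, against 37.3% of all genes, 4 higher and 7 lower. With library totals only 8 passed, against 5823 of all 13057 genes, 5 higher and 3 lower. Of the 11, higher in GRKO were Ciart (1.79), Wee1 (0.89), Timeless (0.69) and Cipc (0.57). Lower were Npas2 (-1.41), Fbxl21 (-1.16), Noct (-1.11), Nfil3 (-1.0), Cry2 (-0.69), Nampt (-0.44) and Bhlhe40 (-0.40). Of 15 alternatives, all 15 kept the call of Wee1, Timeless, Npas2, Noct and Nfil3. Cipc, Fbxl21, Nampt and Bhlhe40 kept it in 10 to 13, Cry2 in 7 and Ciart in 6. Ciart had 11 to 14 counts in GRKO and 2 to 3 in WT non-Paneth libraries. Npas2 was found at 17.4 to 18.9 TMM-scaled CPM in GRKO and at 44.4 to 52.8 in WT non-Paneth cells, far apart (adjusted p = 1.28e-05 by edgeR). The proliferation markers named above were higher in the same libraries, and their part in these values was not tested. The interaction passed for 8 of the 21 genes, against 18.7% of all genes, 5 of them higher and 3 lower, and these share all their libraries with the comparisons named. In non-Paneth cells 6 of 9 tested receptor target genes passed as well, against 37.3% of all genes, 5 lower (19.8% of all genes) and 1 higher, with Mt1 at 1.75 and Cdkn1a at -1.40.

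**Figure D5:**
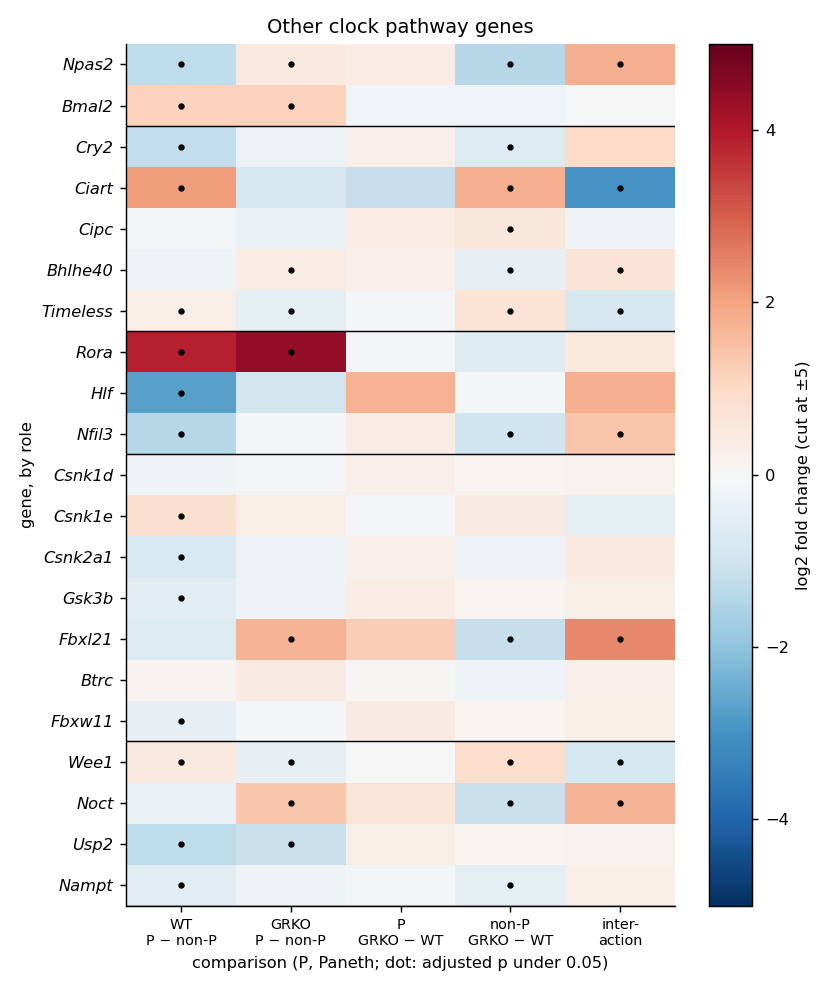
Log2 fold changes (colour) of the 21 other clock pathway genes tested (rows, grouped by role from activators to output genes) in the 5 comparisons (columns, P for Paneth). Dots mark an adjusted p under 0.05 by edgeR. Dots are absent from the column for GRKO against WT Paneth cells and mark 11 genes in the column for non-Paneth cells.

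Genes whose pattern over the 12 libraries was most like that of a member were sought for the 3 members with the widest range of group means, by the root mean square difference of centred log2 values. For Nr1d1 (range 1.98) these were Ago4, Ypel3 and Gm15972, with differences of 0.50, 0.51 and 0.62. For Nr1d2 (range 1.59) they were Cyp4f17, Mospd1 and 9230116L04Rik (0.23 to 0.28), and for Bmal1 (range 1.25) Tnfrsf11a, B4galt6 and Dolpp1 (0.10 to 0.13). The profile of Bmal1 thus had closer matches than that of Nr1d1. Members were left out of this search, so it does not show how alike the members are. None of the 9 genes is one of the other clock pathway genes.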

How the data were processed

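RNA of 12 libraries was sequenced single-end after a stranded preparation. Per the labels and the methods, the authors trimmed reads with Trimmomatic 0.39, aligned them to mm39 (GRCm39) with STAR 2.7.10a and deposited raw counts per gene, which are not normalized. Genes were named through GENCODE vM39 (54749 of 55414 matched). The total count of a library was 11126297 to 15910292. Here, counts were filtered with filterByExpr (13057 genes kept), scaled with TMM and fitted with edgeR 4.0.16 (quasi-likelihood, robust, R 4.3.3), 1 mean per group over all 12 libraries, with Benjamini-Hochberg adjustment over all genes tested and a threshold of 0.05. The procedure was tested on simulated counts. DESeq2 1.42.0 was an alternative, with other scalings, filters, blocks and left-out libraries. Groups came from the titles. Confidence intervals are 95%. Values for profiles are log2 with a prior count of 0.5. All 10 members are named in each comparison, and other clock pathway genes where they passed. Nearest profiles were the 3 tested genes, members left out, closest to each of the 3 members with the widest range of group means. Some genes of the pathway list are not reported here and enter none of its counts. The members and lists were chosen with earlier results of these data known. Replicate numbers were taken as pairs where all correlations of deviations passed 0.1, as in WT (0.320, 0.211 and 0.196) but not in GRKO mice.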

Additional observations from a re-analysis of the deposited data

Results flagged for a closer look

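The genotype difference in non-Paneth cells differed from that in Paneth cells, by a test of the interaction (edgeR, adjusted p under 0.05), for 8 of the 21 other clock pathway genes tested (18.7% of all genes passed) and for none of the 10 members. Of the members 1, Nr1d1, had an unadjusted p under 0.05, as did 4345 of all 13057 genes. DESeq2 called 1 member, against 2988 of 24077 genes. The genotype difference was higher in Paneth cells on the log2 scale for Fbxl21 (2.4), Npas2 (1.76), Noct (1.70), Nfil3 (1.38) and Bhlhe40 (0.64). It was lower for Ciart (-2.95), Wee1 (-0.90) and Timeless (-0.81). Of 20 alternatives, all 20 kept the call of Fbxl21, Npas2, Noct, Nfil3, Wee1 and Timeless, while 15 kept that of Ciart and 12 that of Bhlhe40. Ciart had 2 to 14 counts per library. Npas2 was found at 16.7 to 23.8 TMM-scaled CPM in WT Paneth, 21.9 to 29.5 in GRKO Paneth, 44.4 to 52.8 in WT non-Paneth and 17.4 to 18.9 in GRKO non-Paneth libraries, so that it is the WT non-Paneth group that stands apart. The enterocyte, proliferation and tuft markers also differ between the non-Paneth groups, and their part in these values was not tested.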

How the results depend on the processing

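Of 800 values of members under alternatives, 709 kept direction and side of the threshold, 27 came to pass it, 22 no longer passed and 42 changed sign. Of 683 values for the other clock pathway genes called, 588 stayed, 91 no longer passed and 4 changed sign. The cause of these changes was not tested.

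In the number of members called, the WT fractions gave 3 in place of 5 with only the groups compared, and the GRKO fractions 8 in place of 3 with library totals. GRKO against WT gave 1 in place of 0 in Paneth cells without a filter on low counts. In non-Paneth cells it gave, in place of 1, 2 with DESeq2, with RLE factors, with at least 10 counts and with only the groups compared, 3 with library totals, 4 without a filter, 0 without both WT libraries numbered 2 and 0 with a replicate block, and 0 to 2 with single libraries left out. The interaction gave 1 in place of 0 with DESeq2, without a filter and with the replicate block. For the other clock pathway genes, GRKO fractions gave 18 in place of 9 with library totals and 5 to 9 with single libraries left out. In Paneth cells genotype gave 1 with DESeq2, 2 without a filter, 1 with the replicate block and 0 to 2 with single libraries left out, in place of 0, and in non-Paneth cells 6 in place of 11 without both WT libraries numbered 2 and 6 to 9 with single libraries left out. Nr3c1 in Paneth cells no longer passed with only the groups compared (-2.35), without both WT libraries numbered 2 (-2.28), without GRKO Paneth replicate 2 (-2.03, edgeR adjusted p = 0.154) or without WT Paneth replicate 1 (-2.42, edgeR adjusted p = 0.121), and was -2.82 to -2.03 with single libraries left out.

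Equal numbers of the 2 genotypes and of the GRKO fractions did not meet the rule for pairs, and GRKO Paneth replicate 1 did not correlate best with its own number. With the replicate block Nr1d1 lost its call between genotypes in non-Paneth cells (-2.03, adjusted p = 0.0590), Nr1d1 passed in the interaction (2.22), and Per2 passed between the GRKO fractions (-0.80). The block changed no other call of a member beyond that of Cry1 given above, and among the other clock pathway genes Timeless no longer passed between the WT fractions (0.32). The number of all genes called between GRKO and WT Paneth cells was 977 with it in place of 420, 1407 with DESeq2, 1780 without a filter, 0 with only the groups compared, 1 without both WT libraries numbered 2 and 2 with library totals, and for the GRKO fractions 10785 in place of 5116 with library totals.

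With library totals these log2 fold changes turned sign. Between the WT fractions these were Per1 (-0.050), Dbp (-0.014), Tef (-0.29), Timeless (-0.36) and Wee1 (-0.21). Between the GRKO fractions they were Per1 (-0.73), Per3 (-0.88), Tef (-0.94), Npas2 (-0.46) and Bhlhe40 (-0.59), and between genotypes Bmal1 in Paneth cells (0.0053) and Clock (0.052) and Nr1d2 (0.15) in non-Paneth cells. Without a filter Tef between the GRKO fractions (-0.046) and Bmal1 in Paneth cells (0.0044) turned. Cry1 between the GRKO fractions turned with at least 10 counts (0.024) and with only the groups compared (0.018). Without both WT libraries numbered 2, Per3 between genotypes in non-Paneth cells (-0.036) and Nr1d2 in the interaction (0.016) turned. Apart from Per1 and the 4 other pathway genes, none of these passed in the main analysis.

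With single libraries left out, the following ranges crossed 0, for values that did not pass. Between the WT fractions they were -0.67 to 0.21 for Nr1d1 and -0.0060 to 1.13 for Dbp. Between the GRKO fractions they were -0.034 to 0.24 for Per3, -0.46 to 0.16 for Cry1, -0.36 to 0.15 for Dbp and -0.050 to 0.21 for Tef. For genotype in Paneth cells they were -0.34 to 0.22 for Per2, -0.12 to 0.14 for Bmal1, -0.067 to 0.25 for Clock, -0.31 to 0.58 for Nr1d1, -0.68 to 0.25 for Dbp and -0.10 to 0.32 for Tef. For genotype in non-Paneth cells they were -0.23 to 0.21 for Per1 and -0.083 to 0.34 for Per3, and for the interaction -0.064 to 0.56 for Cry1 and -0.61 to 0.064 for Nr1d2. Where a group was left with 1 or 2 libraries, it was assumed to vary like the others.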
